A study of Mus musculus with 80 samples.

Results

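Livers of mice given 0.3 mg/kg-day of PFESA-BP2 were compared with livers of mice given 0.03 mg/kg-day, a step of 1 dose level in the low range of the series. PFESA-BP2, which the sample titles call Nafion BP2, is a perfluoroalkyl ether sulfonic acid and a byproduct of making the polymer Nafion. The members were chosen by their titles: 4 mice at each of the 2 doses, so 8 of the 20 mice and 32 of the 80 lane samples, since each mouse gave 1 library sequenced over 4 lanes. All were Balb-C females, 10 to 12 weeks old, dosed once a day by gavage for 7 days, and each library came from the liver of an individual animal. The other 12 mice received vehicle alone, 3.0 mg/kg-day or 6.0 mg/kg-day under the same schedule. They entered the fit through the filter, the scaling and the estimate of the spread between mice, and not through the contrast. Their levels, and a contrast of 3.0 mg/kg-day with vehicle, are given as context. The titles of the vehicle mice name DMSO and the design text names water, so the vehicle is not settled here, and it is not part of the comparison. No knockout or other allele is named in the labels.

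Perfluoroalkyl substances resemble fatty acids and can act on nuclear receptors of the hepatocyte. CAR (constitutive androstane receptor) and PXR (pregnane X receptor) are sensors of foreign compounds that switch on cytochrome P450 genes, carboxylesterases, conjugating enzymes and efflux pumps, and mouse Cyp2b10 and Cyp2c55 are their customary readouts. PPARA (peroxisome proliferator-activated receptor alpha) drives fatty acid oxidation genes, with Cyp4a10 and Cyp4a14 as readouts. Cholesterol synthesis genes are driven by another factor, SREBP2, which is activated when sterols in the cell run low.

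Across the 15197 genes tested, 3 genes passed (adjusted p under 0.05, edgeR's quasi-likelihood test with Benjamini-Hochberg adjustment), which is 0.0197% of them. All 3 rose at 0.3 mg/kg-day and all 3 are cytochrome P450 genes of the CAR list: Cyp2c55, Cyp2c29 and Cyp2b10. By the same test 0 genes fell, and limma-voom also gave 0 lower genes. DESeq2 called 17 genes, 16 higher and 1 lower. At an unadjusted p under 0.05 there were 307 genes higher (2.02%) and 203 lower (1.34%). The median log2 fold change of all genes tested was -0.01. The depth of the groups overlapped: total counts ran from 15961103 to 19549893 at 0.03 mg/kg-day and from 18694195 to 20485224 at 0.3 mg/kg-day (exact permutation test, two-sided p = 0.0857, where 4 against 4 mice allow 0.0286 at the lowest). Libraries 3, 11, 15, 19 and 23 stood apart from the others within their groups, on a first component that held 42.7% of the variance within groups. One of them, library 11, belongs to the 0.03 mg/kg-day group and another, library 15, to the 0.3 mg/kg-day group. Each of the 5 is the third by library number in its group, and the labels do not say what libraries at the same place share.

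The 3 genes that passed are shown first by their promoters, as the windows from which their transcription starts. Each window covers 250 bases before and 50 bases after the RefSeq start site on GRCm38.p6, read on the gene's own strand. The promoter of Hmgcs1, which makes the HMG-CoA that enters cholesterol synthesis, is added as a member of that pathway and was chosen after its values were seen. Capitals mark matches, on either strand, to 4 patterns: AGGTCA (half-site of nuclear receptors), TTCNNNGAA (STAT5), TGACNNNGC (NRF2) and TCACNCCAC (the sterol response element, also chosen after the values were seen).
Cyp2c55, chr19:39006769-39007068, + strand: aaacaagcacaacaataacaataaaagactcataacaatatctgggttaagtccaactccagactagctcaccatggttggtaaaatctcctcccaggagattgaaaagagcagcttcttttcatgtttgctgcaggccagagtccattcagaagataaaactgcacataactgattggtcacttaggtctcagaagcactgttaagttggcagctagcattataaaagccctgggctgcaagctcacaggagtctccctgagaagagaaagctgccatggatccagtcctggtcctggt
Cyp2c29, chr19:39286835-39287134, + strand: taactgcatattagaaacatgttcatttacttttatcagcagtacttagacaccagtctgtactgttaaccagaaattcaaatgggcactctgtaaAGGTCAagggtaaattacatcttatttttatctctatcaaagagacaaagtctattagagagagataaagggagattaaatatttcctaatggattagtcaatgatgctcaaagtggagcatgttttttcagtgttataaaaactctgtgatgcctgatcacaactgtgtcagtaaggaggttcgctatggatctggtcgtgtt
Cyp2b10, chr7:25897408-25897707, + strand: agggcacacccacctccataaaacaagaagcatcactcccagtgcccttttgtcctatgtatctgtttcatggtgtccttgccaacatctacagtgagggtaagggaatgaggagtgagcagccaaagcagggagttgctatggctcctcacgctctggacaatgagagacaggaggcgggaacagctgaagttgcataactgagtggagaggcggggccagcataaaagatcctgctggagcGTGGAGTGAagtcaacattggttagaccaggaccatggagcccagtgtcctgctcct
Hmgcs1, chr13:119690101-119690400, + strand: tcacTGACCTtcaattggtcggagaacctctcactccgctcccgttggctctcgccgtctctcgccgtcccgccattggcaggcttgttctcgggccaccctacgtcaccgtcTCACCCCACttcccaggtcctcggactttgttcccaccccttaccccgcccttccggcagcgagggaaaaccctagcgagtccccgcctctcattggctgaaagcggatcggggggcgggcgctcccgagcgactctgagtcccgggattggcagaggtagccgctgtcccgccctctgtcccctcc
Cyp2c29 held 1 AGGTCA match, which begins 154 bases before the start site, and Cyp2b10 held 1 TCACNCCAC match on the opposite strand, 7 bases before it. Hmgcs1 held 1 TCACNCCAC match 137 bases before the start site and 1 AGGTCA match on the opposite strand at the far end of its window. Cyp2c55 held no match to any of the 4. Most of these patterns are common in promoters of this length, and TCACNCCAC is rarer. Of 32851 RefSeq windows 16.3% held AGGTCA, 8.3% TTCNNNGAA, 12.4% TGACNNNGC and 1.24% TCACNCCAC. A match is not evidence of a bound site, and a missing match says only that the letters are not in the window.

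Cyp2c55, a CYP2C enzyme that oxidises fatty acids and drugs, lies on chromosome 19 from 39007019 to 39042693 (GENCODE M21 on GRCm38). Its levels in the 4 mice at 0.03 mg/kg-day were 7.45, 4.65, 4.57 and 7.1 CPM (counts of the gene scaled to a common library total). At 0.3 mg/kg-day they were 29.5, 26.4, 25.6 and 38.6 CPM. The lowest mouse at the higher dose had over 3 times the level of the highest mouse at the lower dose. The mean went from 5.94 ± 1.54 to 29.99 ± 5.97 CPM (SD, n = 4 in each group), a log2 fold change of 2.34 (SE 0.266; 95% interval 1.77 to 2.91) with an adjusted p of 0.000437 by edgeR.

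Cyp2c29, an abundant hepatic CYP2C enzyme, lies on chromosome 19 from 39269405 to 39330713. Levels at 0.03 mg/kg-day were 3853, 3609.7, 3945 and 3588 CPM, and at 0.3 mg/kg-day 7421, 7614, 10939.5 and 9438 CPM. The mice at the lower dose were close together and the groups did not overlap, with libraries 15 and 16 highest. The log2 fold change was 1.24 (SE 0.155; 95% interval 0.91 to 1.57), with an adjusted p of 0.000923 by edgeR. The annotated span of Cyp2c29 overlaps that of the pseudogene Cyp2c53-ps, and the CYP2C genes are close paralogs, so reads could be divided between them by the counting.

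Cyp2b10, the textbook CAR target, lies on chromosome 7 from 25897620 to 25926624. Levels at 0.03 mg/kg-day were 183, 159, 246 and 222 CPM, and at 0.3 mg/kg-day 444, 426, 753 and 707 CPM. Here too the groups did not overlap and libraries 15 and 16 were highest. The log2 fold change was 1.53 (SE 0.243; 95% interval 1.01 to 2.04), with an adjusted p of 0.0211 by edgeR. This call was the least stable of the 3: it was lost with library totals alone as the scaling (adjusted p = 0.0748), in a fit of only the 8 mice (0.0911), and without library 9 (0.125), 10 (0.184), 12 (0.0909), 15 (0.132) or 16 (0.111), while its log2 fold change stayed between 1.38 and 1.65. In the fit of only the 8 mice Cyp2c29 was lost too (adjusted p = 0.0701), which left Cyp2c55.

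**Figure D1:**
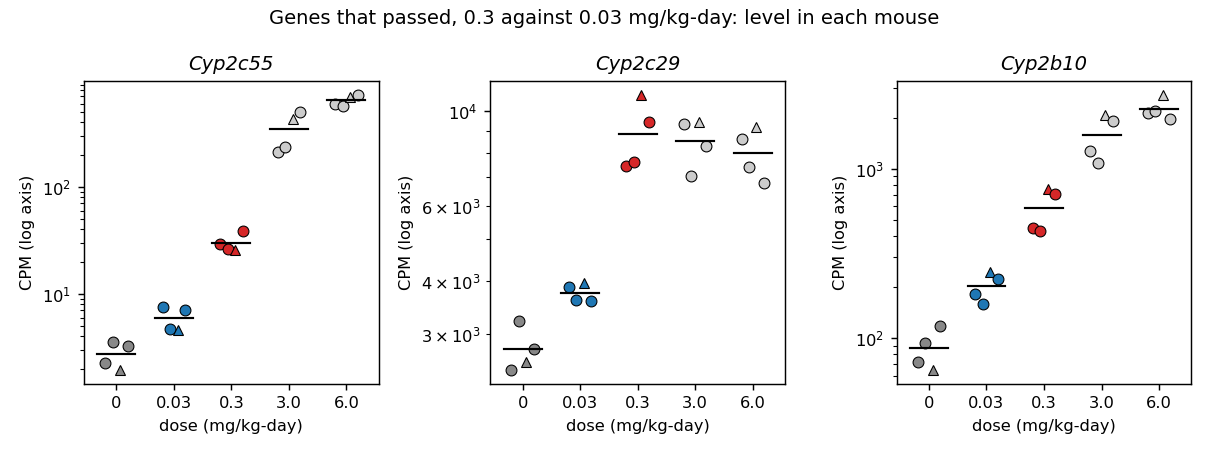
Level of Cyp2c55, Cyp2c29 and Cyp2b10 in each of the 20 mice (CPM, log axis) by dose in mg/kg-day, with the 0.03 mg/kg-day mice in blue, the 0.3 mg/kg-day mice in red, the other doses in grey and the group mean as a bar. Triangles are libraries 3, 11, 15, 19 and 23. All 4 red points lie above all 4 blue points in each panel, and Cyp2c29 is at 8853 CPM on average at 0.3 mg/kg-day and at 7989.6 CPM at 6.0 mg/kg-day.

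The step between these doses took a different place in the dose series for each of the 3 genes. For Cyp2c29 the mean was 2754 ± 332 CPM in vehicle mice and 8853 ± 1662 CPM at 0.3 mg/kg-day, and 8526 ± 1114 and 7989.6 ± 1098 CPM at the doses of 3.0 and of 6.0 mg/kg-day (SD, n = 4 in each group). The 0.3 mg/kg-day mean was thus 111% of the 6.0 mg/kg-day mean, and the mice of these 3 doses overlapped. For Cyp2b10 the 0.3 mg/kg-day mean was 25.9% of the 6.0 mg/kg-day mean of 2247 ± 334 CPM. For Cyp2c55 it was 4.64% of the 6.0 mg/kg-day mean of 646 ± 72.3 CPM, so most of the range of this gene lay above the doses compared. Differences between the genes in these shares were not tested.

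The 3 genes were also higher in mice outside the 2 groups compared, which share the fit and its estimate of spread. At 3.0 mg/kg-day against vehicle their log2 fold changes were 6.96 for Cyp2c55, 1.63 for Cyp2c29 and 4.19 for Cyp2b10, and all 3 passed in the same fit (adjusted p of 5.07e-11, 1.3e-06 and 8.34e-09 by edgeR). In that contrast 483 genes rose, or 3.18% of those tested, and 218 fell, or 1.43%.

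The genes with the next smallest p included 2 more of the CYP2C family. Cyp2c53-ps, a transcribed CYP2C pseudogene beside Cyp2c29, was at 0.771, 0.672, 0.603 and 0.33 CPM at 0.03 mg/kg-day and at 1.7, 2.07, 3.03 and 3.58 CPM at 0.3 mg/kg-day. Its log2 fold change of 2.12 (SE 0.371) had an adjusted p of 0.0521 by edgeR. Cyp2c50 was at 1257, 1329.8, 1222 and 1160.3 CPM at the lower dose and between 1769.6 and 2239.7 CPM at the higher dose, a log2 fold change of 0.69 (adjusted p = 0.135). Gm26526, a transcript outside this family, had the same adjusted p of 0.135. Ces2c, a carboxylesterase, ran from 16.8 to 21.2 CPM and from 30.6 to 44.2 CPM (0.91, adjusted p = 0.137). Rdh11, a retinol dehydrogenase, ran from 40.8 to 57.6 CPM and from 67.0 to 90.7 CPM (0.61, adjusted p = 0.151). Of these 4 the groups did not overlap in any. A term for libraries 3, 11, 15, 19 and 23 in the fit, which takes up what these 5 share, gave 13 genes that passed (0.0855%), with 12 higher and 1 lower. The 4 genes above were among the 13, and so were Gadd45a, a DNA damage and growth arrest gene, Echdc1, Gm26526, the pair Gm15801 and Gm8783 and, as the lower gene, Cyp3a16. Gm15801 and Gm8783 have the same value in every mouse and cannot be told apart. Of the 13 genes 8 passed in the same direction at 3.0 mg/kg-day against vehicle, where 3.18% of all genes rose and 1.43% fell. Of the same 13, 5 belong to the CAR list.

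The CAR list as a whole lay to the higher side. Its 22 genes, like those of the other lists, were chosen with earlier results of these data known. The shares of all genes given beside its counts are thus no test of it. Of the 22 genes 21 were tested. Of the 21, 3 rose and none fell, 15 were higher at an unadjusted p under 0.05 (2.02% of all genes) and 13 had all 4 mice of the higher dose above all 4 of the lower dose (1.91% of all genes, 291 of 15197). The median log2 fold change was 0.49, beside -0.01 for all genes tested, and 1.45 at 3.0 mg/kg-day against vehicle. In 13 of the 21 genes the group means increased at each step of the 5 dose groups, beside 701 of all 15197 genes. Without libraries 11 and 15, 14 of the 21 had groups of 3 mice that did not overlap (9.35% of all genes, a share raised by the smaller groups). The summed level of the 21 genes ran from 11953 to 13347 CPM at the lower dose and from 19229.6 to 23332 CPM at the higher, so the sums did not overlap.

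Within the CAR list, the transporter Abcc4, an efflux pump for organic anions, was at 9.63, 11.3, 12.8 and 12.8 CPM and then at 20.0, 19.6, 25.7 and 22.3 CPM. Its log2 fold change of 0.91 (SE 0.229) had an adjusted p of 0.582. Cyp2c54 and Cyp2c37 had log2 fold changes of 0.57 and 0.49, and in both the groups did not overlap (adjusted p of 0.557 and 0.975 by edgeR). The coumarin hydroxylase gene Cyp2a5, the P450 reductase gene Por, which passes electrons to all microsomal P450s, and the sulfate donor synthase gene Papss2 had log2 fold changes of 0.58, 0.61 and 0.30. The aldehyde dehydrogenase genes Aldh1a1 and Aldh1a7 had 0.46 and 0.41. None of these passed. Aldh1a1 went from 1572 ± 317 CPM in vehicle mice to 7488 ± 1319 CPM at 6.0 mg/kg-day (SD, n = 4), and its means at the doses compared were 1859 ± 219 and 2559 ± 247 CPM.

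Other CAR genes that were much higher at the top doses showed small differences here. Gadd45b, a stress gene, was at 0.716 ± 0.314 and 0.839 ± 0.214 CPM in the groups compared (SD, n = 4), a log2 fold change of 0.24 with a 95% interval of -0.52 to 1.00, and reached 18.9 ± 5.94 CPM at 6.0 mg/kg-day. Without library 11 its log2 fold change was 0.0028, and without library 12 it was 0.493. Akr1b7, an aldo-keto reductase gene, was at 2.25 ± 0.291 and 2.52 ± 0.942 CPM and reached 41.8 ± 9.1 CPM at 6.0 mg/kg-day. Its log2 fold change here was 0.17, with an interval of -0.42 to 0.75, and it changed sign without library 15. The carboxylesterase gene Ces2a overlapped between the groups (0.41, interval -0.11 to 0.93). Cyp2c65 had 0 counts in all 4 mice of the lower dose and 9 counts in all at the higher dose, at most 5 in a mouse, so no fold is given. The median of the other 20 CAR genes was 0.48. Cyp2b9, Cyp2c38 and Cyp2c39 were within 0.05 of 0 on the log2 scale, and the sign of each changed in at least 1 alternative.

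**Figure D2:**
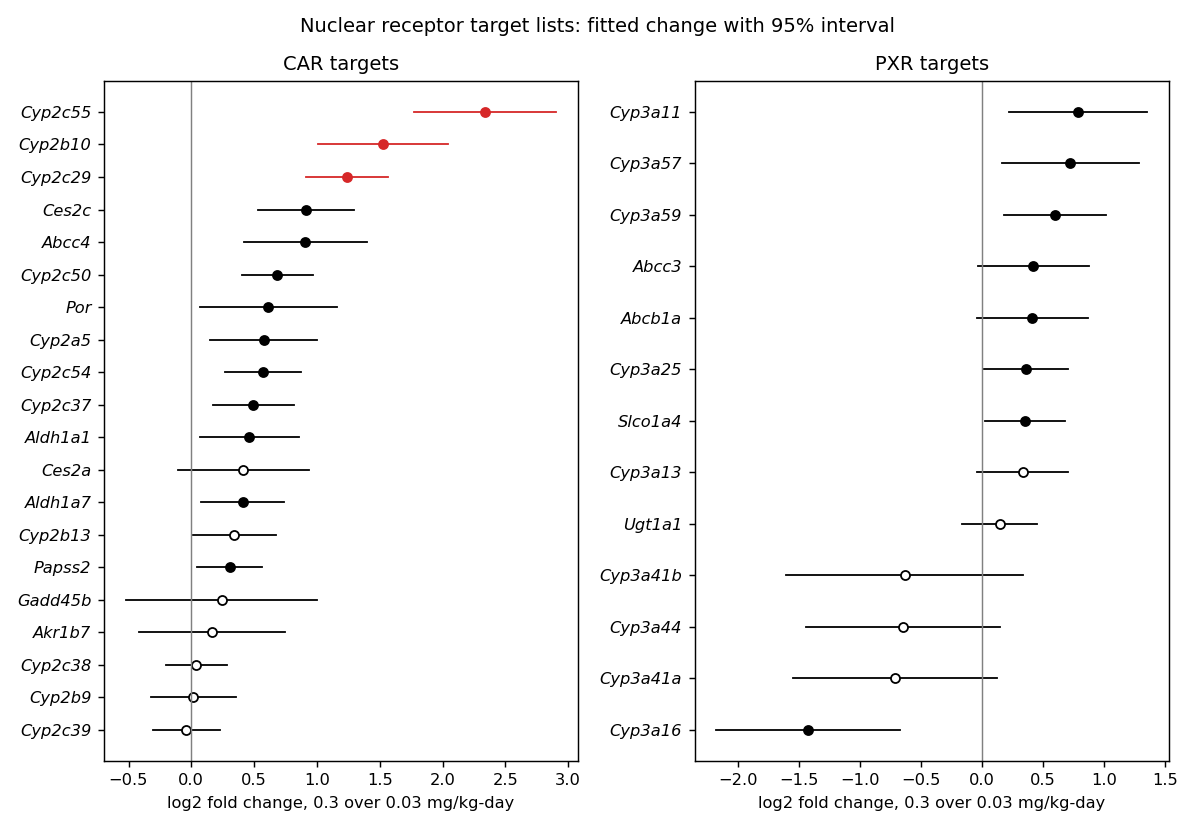
Fitted log2 fold change of 0.3 over 0.03 mg/kg-day with its 95% interval (x axis) for the CAR targets, left, without Cyp2c65, and the PXR targets, right. Red marks the 3 genes that passed, and filled points are genes whose groups of 4 mice did not overlap. Most CAR targets lie right of 0, while the PXR list runs from 0.79 for Cyp3a11 to -1.42 for Cyp3a16.

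The 13 PXR targets were divided. None passed. At an unadjusted p under 0.05, 5 were higher and 1 was lower, 7 lay higher without overlap and 1 lower (1.91% and 1.34% of all genes), and the median log2 fold change was 0.35. Cyp3a11, the main drug-metabolising CYP3A of mouse liver, was at 4595, 6275, 8372 and 8156 CPM and then at 10390.0, 9859, 14770.4 and 12294 CPM. Its log2 fold change of 0.79 had an interval of 0.22 to 1.35 and did not pass (unadjusted p = 0.00754, adjusted p = 1 by edgeR). Cyp3a59 and Cyp3a25 had log2 fold changes of 0.60 and 0.36 without overlap. The same held for the transporters Slco1a4, which takes up organic anions, at 0.35, and Abcb1a and Abcc3, which export drugs and conjugates, at 0.41 and 0.42. These 3 and Abcc4 are 4 of the 5 hepatic transporters, of 20 tested, that lay higher without overlap.

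Cyp3a16 lay on the other side. This CYP3A gene, which is higher in young and in female mice, is on chromosome 5 from 145436309 to 145469723. It was at 58.4, 58.0, 103 and 34.4 CPM at the lower dose and at 23.1, 21.8, 29.0 and 20.8 CPM at the higher. The groups did not overlap, and library 11 was highest in its group and library 15 in its own. The log2 fold change was -1.42 (SE 0.353; 95% interval -2.18 to -0.67), with an adjusted p of 0.557 by edgeR. In the fit that has a term for libraries 3, 11, 15, 19 and 23 it was -1.36 and passed (adjusted p = 0.0355 by edgeR), and it passed by DESeq2 (0.0296). Cyp3a41a and Cyp3a44, other CYP3A genes with female bias, had -0.72 and -0.65 with overlapping groups. Without library 11, their highest mouse, these were -0.406 and -0.267.

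Cholesterol synthesis had the largest share of members that lay higher without overlap among the process lists. This list too was chosen with earlier results of these data known, so the shares of all genes are no test of it. None of its 25 genes passed by edgeR, and Idi1, Msmo1 and Mvd passed by DESeq2 (adjusted p of 0.025, 0.0291 and 0.0292). All 25 log2 fold changes were above 0, with a median of 0.48. Of the 25, 16 were higher at an unadjusted p under 0.05 and 16 had groups that did not overlap, beside 2.02% and 1.91% of all genes. Without libraries 3, 11, 15, 19 and 23 the median was 0.35 and 15 genes were higher at an unadjusted p under 0.05. Over all genes that fit had 1150 genes at that p in either direction, beside 510 in the main fit. Without libraries 11 and 15, 16 of the 25 had groups of 3 mice that did not overlap (9.35% of all genes). At 3.0 mg/kg-day against vehicle 10 of the 25 rose (3.18% of all genes) and the median was 0.69.

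Following the pathway, Hmgcs1, whose promoter is printed above, was at 351, 364, 320.1 and 245 CPM at the lower dose and at 432, 455, 500.0 and 596 CPM at the higher (log2 fold change 0.63, SE 0.181). Every mouse of the higher dose exceeded every mouse of the lower dose. Mvd, the decarboxylase of the mevalonate branch, was at 12.7, 12.0, 8.18 and 6.05 CPM and then at 15.0, 14.2, 18.4 and 17.6 CPM (0.74, SE 0.183, adjusted p = 0.557 by edgeR). Idi1, the isomerase that follows it, was at 127, 139.6, 107 and 90.1 CPM and then at 165, 156, 220.3 and 219.6 CPM. Its log2 fold change of 0.72 (SE 0.169) had an adjusted p of 0.534. In both genes library 12 was lowest, and libraries 15 and 16 were highest.

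Further down, Sqle, the squalene epoxidase, was at 32.9, 32.6, 22.6 and 15.5 CPM and then at 33.8, 33.1, 61.2 and 62.1 CPM. The groups only just separate: libraries 13 and 14 sit next to libraries 9 and 10, and libraries 15 and 16 stand well above them. Its log2 fold change of 0.88 (SE 0.251) was the largest of the list. Msmo1, a sterol methyl oxidase, was at 196, 162, 139 and 90.7 CPM and then at 207, 222, 291 and 311 CPM (0.81, SE 0.195, adjusted p = 0.557 by edgeR). Lss, which closes the sterol ring, ran from 34.3 to 44.6 CPM and from 55.9 to 68.4 CPM (0.61). Fdps and Cyp51 had 0.59 each. Insig1, a sterol-regulated brake on SREBP processing, had 0.62. Srebf2, which encodes SREBP2 itself, had 0.04 (interval -0.22 to 0.30), and the sterol isomerase gene Ebp had 0.03.

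The same mice stood out across the list. In 24 of the 25 genes the lowest mouse at 0.03 mg/kg-day was library 11 or 12, and in 23 of the 25 the highest mouse at 0.3 mg/kg-day was library 15 or 16. Over all 15197 genes these numbers were 8295 and 8356. The list's summed level was 3540.1, 3408, 3191 and 2789.8 CPM in libraries 9 to 12 and 3945, 4084, 5019 and 4697 CPM in libraries 13 to 16, so the sums did not overlap. In the vehicle mice it ran from 3191 to 3554 CPM. In 17 of the 25 genes the mean at 0.03 mg/kg-day was below the vehicle mean, and in 24 the mean at 0.3 mg/kg-day was above it. Among all 15197 genes tested the same held for 8041 and for 7108. With each of the 8 mice left out in turn, the list's median ran from 0.396 to 0.567, and 12 to 16 members were higher at an unadjusted p under 0.05. Over all genes these fits had 380 to 684 genes at that p in either direction.

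**Figure D3:**
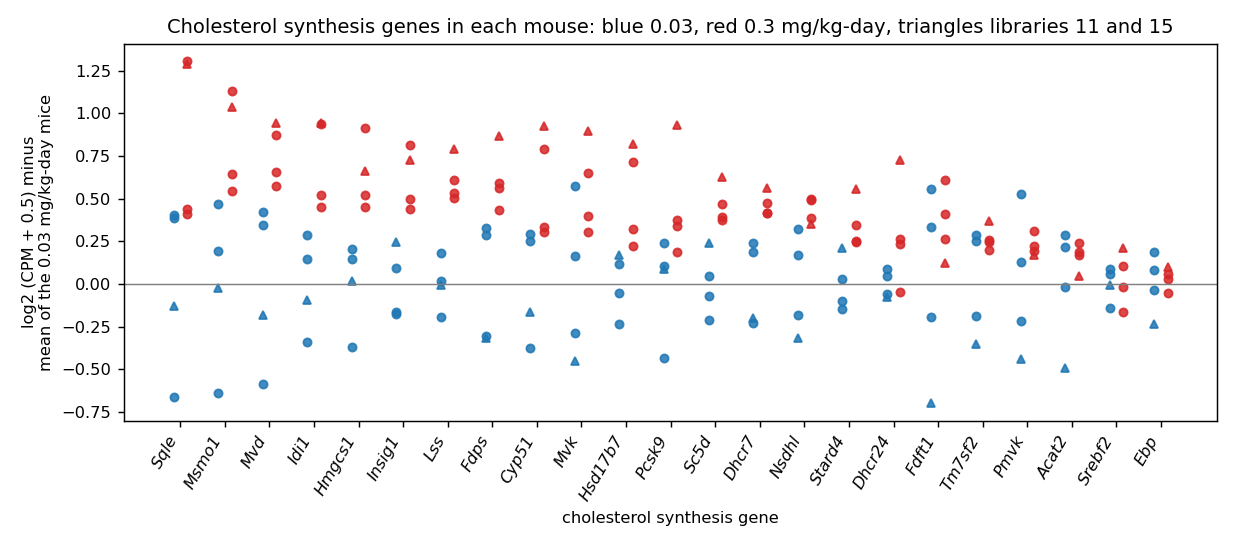
Levels of 23 cholesterol synthesis genes in the 8 mice, as log2 of CPM plus 0.5 minus the mean of the 0.03 mg/kg-day mice (y axis), ordered by fitted change. Blue points are the 0.03 mg/kg-day mice and red points the 0.3 mg/kg-day mice, with triangles for libraries 11 and 15. In 14 of these 23 genes all red points lie above all blue points.

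Levels at the doses compared can be set beside the contrast of 3.0 mg/kg-day and vehicle, which uses other mice of the same fit. Of the 291 genes that lay higher at 0.3 mg/kg-day without overlap, 78 (26.8%) rose at 3.0 mg/kg-day and 0 fell, beside 3.18% and 1.43% of all genes tested. Of the 203 that lay lower, 20 (9.85%) fell at 3.0 mg/kg-day and 3 rose. Across the genes of a list, which are not independent replicates, Pearson's r between the log2 fold changes of both contrasts was 0.776 for 20 CAR targets, without Cyp2c65, and 0.792 for the 25 cholesterol synthesis genes. Over 15196 genes tested, without Cyp2c65, it was 0.279. The CAR value includes Cyp2c55 (2.34 and 6.96 in the 2 contrasts) and Cyp2b10 (1.53 and 4.19), and r without them was not computed. Gadd45b and Akr1b7, at 0.24 and 0.17 in the comparison of the lower doses, had 3.37 and 3.15 at 3.0 mg/kg-day against vehicle.

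The PPARA lists had medians near 0. The median log2 fold changes were -0.00 for 10 omega oxidation genes, 0.03 for 32 peroxisomal oxidation genes, -0.01 for 22 mitochondrial oxidation and ketogenesis genes and -0.04 for 28 other PPARA targets, and none passed. Cyp4a10, a fatty acid omega-hydroxylase, was at 273, 483, 425 and 377 CPM and then at 319.6, 348, 404 and 346 CPM, with overlapping groups (-0.14, interval -0.51 to 0.24). Cyp4a14 was at 107, 217, 199 and 389 CPM and then at 200.2, 147, 223 and 198 CPM (-0.25, interval -0.89 to 0.40). At 6.0 mg/kg-day the means were 1293 ± 63.6 CPM for Cyp4a10 and 2872 ± 384 CPM for Cyp4a14 (SD, n = 4). Among the other PPARA targets, Fgf21, a fasting hormone, was low and ran from 0.514 to 2.17 CPM and from 0.144 to 0.373 CPM (-2.00, adjusted p = 0.557 by edgeR). Pdk4, which restrains glucose oxidation, ran from 6.68 to 9.39 CPM and from 4.19 to 6.25 CPM (-0.72, adjusted p = 0.917). In the glucose list, G6pc, the glucose-6-phosphatase of gluconeogenesis, ran from 199 to 302 CPM and from 139 to 195 CPM (-0.64, adjusted p = 0.975). In all 3 genes the groups did not overlap, and Pdk4 and G6pc were named for their small p in this comparison. Of the 28 other PPARA targets 3 lay lower without overlap and 0 higher. Of the 17 glucose genes 1 lay lower and 0 higher, beside 1.34% and 1.91% of all genes.

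None of the genes of the receptors themselves passed. Nr1i3, which encodes CAR, was at 191 ± 24.6 and 156 ± 33.4 CPM (SD, n = 4; log2 fold change -0.30, interval -0.60 to 0.01, unadjusted p = 0.0491 and adjusted p = 1 by edgeR). Nr1i2, which encodes PXR, was at 69.9 ± 9.57 and 76.0 ± 16.1 CPM (0.12, interval -0.23 to 0.48). Ppara was at 89.8 ± 10.0 and 91.3 ± 3.87 CPM (0.02, interval -0.36 to 0.41). The sign changed for Nr1i2 without library 15 and for Ppara without library 9, 11 or 14.

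Genes with a sex bias in mouse liver went both ways at 0.3 mg/kg-day, and none of them passed. The genes named below are ones with lower levels. Of 34 female-biased genes tested 3 lay lower without overlap and 4 higher, beside 1.34% and 1.91% of all genes, with a median of 0.03. Of 24 male-biased genes 1 lay lower without overlap and 0 higher, with a median of -0.12. The 3 female-biased genes that lay lower were Cyp3a16, Cyp2c69 and A1bg, and the 4 that lay higher are not described in this paragraph. Cyp2c69, a female-specific CYP2C gene, was at 178, 244, 287 and 117 CPM and then at 72.9, 53.7, 109 and 88.7 CPM, with a log2 fold change of -1.35 (SE 0.372, adjusted p = 0.68 by edgeR). A1bg, a plasma glycoprotein gene, was at 43.1, 120.0, 37.5 and 56.2 CPM and then at 23.4, 33.7, 13.6 and 17.4 CPM (-1.54, SE 0.45, adjusted p = 0.831). Hsd3b5, a steroid reductase gene and the male-biased gene that lay lower, was at 5.2, 8.74, 3.36 and 2.92 CPM and then at 1.55, 1.2, 1.78 and 0.895 CPM (-1.89, SE 0.481, adjusted p = 0.582). The spread was wide at the lower dose, where the highest mouse had over 2 times the level of the lowest in each of the 3. Serpina4-ps1, a serpin pseudogene, overlapped through library 13 (-1.95, adjusted p = 0.64).

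In Cyp2c69 the group means followed the order of dose: 454 ± 162 CPM in vehicle mice, 206 ± 74.7 and 81.1 ± 23.4 CPM at the doses compared, then 48.3 ± 23.1 and 10.8 ± 4.76 CPM (SD, n = 4 in each group). At 3.0 mg/kg-day against vehicle its log2 fold change was -3.23 (adjusted p = 2.54e-05 by edgeR). Those of Cyp3a16 and A1bg were -3.004 and -2.31 and also passed (2.7e-05 and 0.00377), and that of Hsd3b5 was -1.81 (0.0288).

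**Figure D4:**
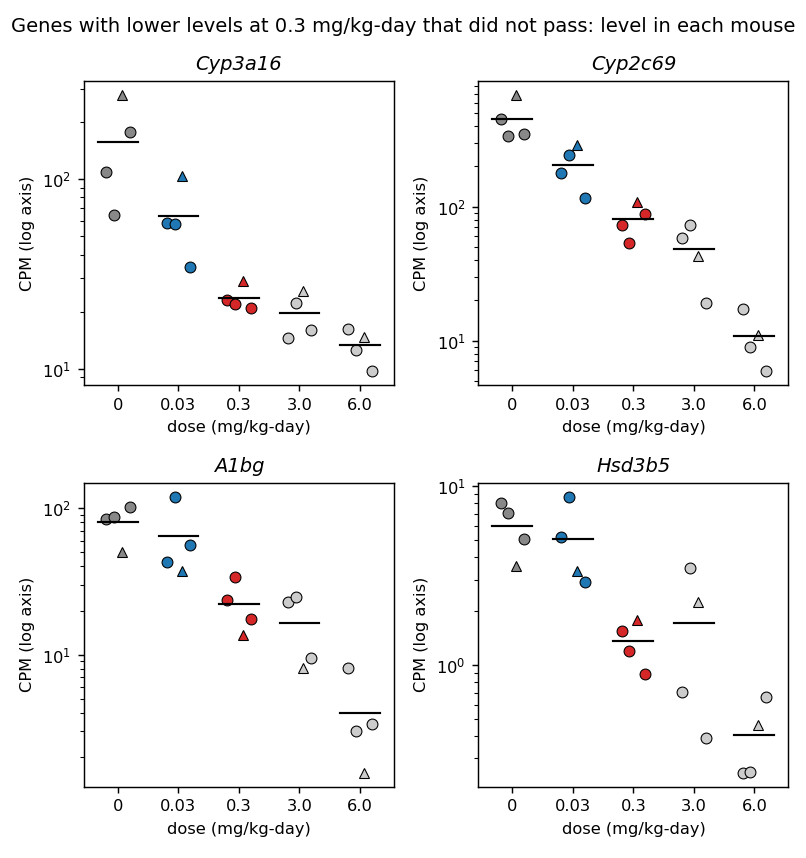
Level of Cyp3a16, Cyp2c69, A1bg and Hsd3b5 in each of the 20 mice (CPM, log axis) by dose in mg/kg-day, coloured and marked as in the plot of the P450 genes, with the group mean as a bar. The genes were picked among those that lay lower, so all 4 red points lie below all 4 blue points in each panel. None of the 4 genes passed.

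A further set of genes had higher means at 0.3 mg/kg-day, most of them not in order of dose. The metallothionein genes encode proteins that bind zinc and copper. Mt2 was at 8.67, 5.59, 12.8 and 8.7 CPM and then at 21.3, 24.4, 71.2 and 45.0 CPM (log2 fold change 2.18, SE 0.578, adjusted p = 0.637 by edgeR). Mt1 ran from 41.2 to 59.2 CPM and from 83.1 to 267 CPM (1.62, adjusted p = 0.975). At 6.0 mg/kg-day Mt2 was at 5.96 ± 2.52 CPM and Mt1 at 22.6 ± 7.59 CPM (SD, n = 4), and in vehicle mice at 17.7 ± 6.76 and 77.2 ± 36.0 CPM. The acute phase genes Saa1 and Saa2 had 2.02 and 1.84 with overlap, since library 13 stayed at 7.73 and 4 CPM while the other 3 mice of its group were at 53.6 CPM or higher for Saa1.

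Gm26526, a transcript with no assigned function, was at 4.56, 6.05, 5.07 and 7.81 CPM and then at 10.1, 14.8, 24.6 and 10.6 CPM (1.36, SE 0.264, adjusted p = 0.135 by edgeR). Its means were 6.19 ± 2.41 CPM in vehicle mice and 6.39 ± 0.187 and 8.64 ± 1.26 CPM at the doses of 3.0 and of 6.0 mg/kg-day. Wee1, a kinase that delays entry into mitosis, ran from 11.6 to 17.2 CPM and from 22.7 to 31.0 CPM (1.00, adjusted p = 0.231), with means of 21.0 ± 4.85 and 34.4 ± 5.72 CPM at 3.0 mg/kg-day and at 6.0 mg/kg-day (SD, n = 4). Gadd45a ran from 2.38 to 3.77 CPM and from 4.62 to 10.5 CPM (1.08, adjusted p = 0.64). Its means did increase over the 4 doses given, from 3.17 ± 0.616 and 6.7 ± 2.63 CPM to 7.98 ± 2.57 and 14.9 ± 5.32 CPM (SD, n = 4), and vehicle mice had 4.26 ± 0.893 CPM.

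Of 40 proliferation genes none passed and 1 lay higher without overlap (1.91% of all genes). Of the 40, 35 were above 0 and the median was 0.31, beside -0.01 for all genes tested. Other lists leaned to the lower side. Of 43 cytosolic ribosome genes 4 were above 0 and of 17 periportal hepatocyte genes 1, with medians of -0.20 and -0.14. At 3.0 mg/kg-day against vehicle the median of the proliferation genes was 2.23 and 29 of them rose (3.18% of all genes). Mki67, a marker of dividing cells, was at 1.98 ± 0.664 and 3.06 ± 0.709 CPM in the groups compared (SD, n = 4) and at 14.6 ± 5.29 CPM at 3.0 mg/kg-day. The medians of phase II conjugation (36 genes) and NRF2 targets (18 genes) were 0.09 and 0.02. Gstm3, a glutathione transferase gene, overlapped between the groups at 8.9 ± 2.56 and 14.4 ± 3.14 CPM and reached 520.4 ± 91.5 CPM at 6.0 mg/kg-day.

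**Figure D5:**
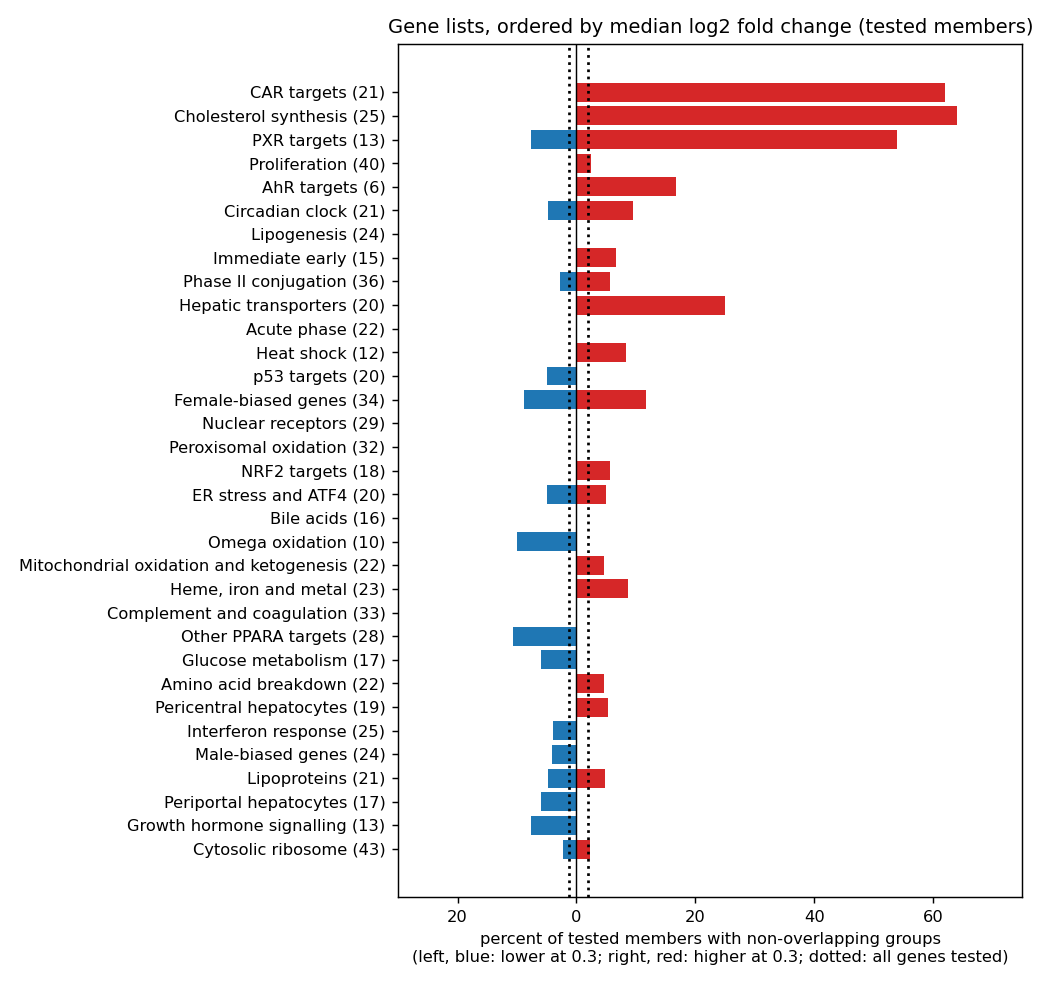
Share of the tested members of each process list (number in brackets) whose groups of 4 mice did not overlap, to the right where higher and to the left where lower at 0.3 mg/kg-day, with the lists ordered by median log2 fold change. Dotted lines give the shares over all genes tested, 1.91% higher and 1.34% lower. Bars of the CAR, cholesterol synthesis and PXR lists are the longest.

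Markers of the cell types in liver gave no passing gene. The median of 12 hepatocyte markers was -0.12, of 12 Kupffer cell markers -0.12, of 15 sinusoidal endothelium markers 0.03, of 14 stellate cell markers 0.03 and of 7 erythroid markers -0.37. The summed level of the hepatocyte markers ran from 136528 to 193437 CPM at the lower dose and from 152689 to 162375 CPM at the higher, and that of the erythroid markers from 315 to 931 CPM and from 356 to 506 CPM, so both overlapped. In whole liver, fewer cells of a type and less RNA per cell cannot be told apart.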

How the data were processed

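Liver RNA of 20 mice was sequenced, with 4 mice per dose and each library run over 4 lanes. The deposited table holds expected counts per gene, 1 column per library. That unit was read from the values (58% exactly whole, with no tolerance). Per the submitters' processing notes, Partek and GRCm38.p5 were used. The sources used here name no aligner, counting method or use of strand. Counts were rounded. The filter filterByExpr removed low rows and kept 15197 of 22103. Scaling was by TMM, and edgeR 4.0.16 (R 4.3.3) fitted a mean per dose group over all 20 mice with 15 residual degrees of freedom. The SE is the absolute log2 fold change divided by the square root of F, and 95% intervals use 15 degrees of freedom. The quasi-likelihood test uses more, so an interval can include 0 at an unadjusted p under 0.05, as for Nr1i3. The biological coefficient of variation was 0.219.

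Alternatives used DESeq2 1.42.0, limma 3.58.1 (voom), other scalings, filters and subsets of mice. The fit was tested on simulated counts. Named genes were up to 12 passing rises or falls with 2 CPM or more, up to 4 members per list by p, a fixed set of sentinel genes, and further genes chosen after their values were seen: Cyp2c53-ps, Gm26526, Rdh11, Wee1, Gadd45a, Mt1, Mt2, Saa1, Saa2, Hsd3b5, A1bg, Echdc1, Gm15801, Gm8783 and list members beyond the first 4. Members and lists were chosen with earlier results of these data known. Mitochondrial transcripts were not analysed, and some list members are counted but not reported here by name. The 21 rows with names in the form of dates are not named.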

Additional observations from a re-analysis of the deposited data

Results flagged for a closer look

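In 10 of 136 groups of 4 mice, over the 68 genes named, 1 mouse stood apart from the other 3 by a gap that chance gives in about 1 of 20 groups. Library 11 was apart for Mt1 (59.15 CPM, the others 41.22 to 43.92), Nr1i2 (84.26, the others 64.17 to 65.76) and Por (219, the others 353.4 to 375.6). Library 15 was apart for Nr1i2 (99.97 CPM, the others 65.38 to 70.05), Echdc1 (178.6, the others 125.9 to 133.3), Cyp3a41a (788.1, the others 545.1 to 585.9) and Abcc3 (580.7, the others 420.2 to 446.9). Libraries 11 and 15 thus account for 7 of the 10, and their part in these differences was not tested beyond the fits given with and without them. Library 14 was apart for Wee1 (22.71 CPM, the others 29.94 to 31), library 13 for Papss2 (792.8, the others 846.8 to 855.8) and library 9 for Cyp2a5 (904.5, the others 594.5 to 645.1).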

How the results depend on the processing

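The number of genes that passed was 3 with 3 higher, and it moved by over 1.5 times in 3 of the alternatives. It was 17 by DESeq2 (16 higher, 1 lower), 13 with a term for the libraries apart (12 higher, 1 lower) and 1, higher, in the fit of only the 8 mice. It ran from 2 to 4 when single mice were left out, from 2 to 4 higher and 0 to 0 lower. All 3 genes stayed among those called by DESeq2, limma-voom and the fits with the term or without the 5 libraries. DESeq2 also called the cholesterol genes Idi1, Msmo1 and Mvd. No paired analysis was possible because the dose groups share no replicate numbers.

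The sign changed for genes with a log2 fold change near 0, and for Cyp4a14. Without the 5 libraries apart it was -0.0167 for Akr1b7, 0.0023 for Cyp2c39, -0.0302 for Srebf2, -0.0745 for Ebp and -0.0057 for Ppara, and with library totals alone it was -0.0020 for Cyp2b9. When single mice were left out, the values ran from -0.0738 to 0.346 for Akr1b7, -0.0609 to 0.0837 for Cyp2b9, -0.0095 to 0.0669 for Cyp2c38, -0.0232 to 0.101 for Srebf2, -0.0474 to 0.0911 for Ebp, -0.482 to 0.141 for Cyp4a14, -0.0172 to 0.0999 for Ppara and -0.0388 to 0.224 for Nr1i2. The cause was not tested. With 4 mice a group the 95% interval of Akr1b7 still allows a log2 fold change of 0.75.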
